A study of Homo sapiens with 6 samples.

Results

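The 10 genes described here encode enzymes of the glycolytic trunk from glucose-6-phosphate isomerase to pyruvate kinase: GPI, ALDOA, ALDOC, TPI1, GAPDH, PGK1, PGAM1, ENO1, ENO2 and PKM. Phosphofructokinase, which acts between GPI and aldolase, is not among them and was read with the neighbouring lists. The 10 genes were chosen by their place in the pathway and matched by gene symbol, which gave 10 of the 60612 gene rows in the deposited table. RNA was sequenced from 6 libraries of SNU-368, labelled a hepatocellular carcinoma line, of which 3 carried a control hairpin (shCtrl) and 3 a short hairpin RNA against TFAM (shTFAM). TFAM packages mitochondrial DNA and is needed for its transcription, and the title of the series concerns its loss and liver cancer metastasis. Both groups share the one line and no other treatment is labelled. The labels do not give the hairpin sequence, the number of hairpins, the time after their delivery or whether pools or clones were used. Nor do they say whether replicates came from separate cultures, and p-values therefore measure only how far these samples spread, which may be technical.

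Glycolysis splits glucose into pyruvate in the cytosol, with a net yield of ATP and NADH that needs no oxygen. Most of the steps between GPI and enolase run close to equilibrium and are also used, in reverse, by gluconeogenesis in the liver, whereas pyruvate kinase is essentially one-way. Many genes of these enzymes are known targets of the hypoxia-inducible factors and of MYC, and tumours commonly carry high levels of their mRNAs.

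TFAM itself was measured at 81.7, 75.8 and 89.2 CPM in shCtrl 1, 2 and 3 and at 63.4, 64.7 and 56.4 CPM in shTFAM 1, 2 and 3, where CPM are counts scaled to library size after adjustment by the trimmed mean of M values (TMM). It fell by 0.42 log2 units (SE 0.107, adjusted p 0.0377 by edgeR's quasi-likelihood test with Benjamini-Hochberg adjustment over all 14708 rows tested), and TFAM RNA remained in every shTFAM library. Libraries held between 43286024 and 61058282 counts, and 3 counts, the limit that a count of 0 allows for counting error alone, corresponded to 0.0517 to 0.0673 CPM. On principal components of log2 CPM the groups separated on the first (46.0% of the variance), and on the second (16.6%) shCtrl 3 lay away from shCtrl 1 and 2. Of 12 hepatocyte and liver cancer markers, 7 had 0 counts in all libraries, ALB, AFP, APOA1, APOA2, APOB, TTR and GPC3. The transcription factor HNF4A had 35 to 130 counts a library. The secreted proteins among these 7 thus gave no sign of the labelled cell type, and their absence alone does not settle it. The epithelial keratin KRT8 averaged 629.3 CPM in shCtrl and 961.2 CPM in shTFAM and rose (log2 fold change 0.61, adjusted p 0.0160). Its partner keratin KRT18 averaged 615.3 and 586.6 CPM and was not called (log2 fold change -0.069, adjusted p 0.724). The 6 immune markers summed to 10.8 to 16.1 CPM in shCtrl and 32.3 to 47.0 CPM in shTFAM, with PTPRC, CD3E and LYZ at 0 counts and CD68 the single tested row (log2 fold change 1.43, adjusted p 0.00892). The 6 fibroblast markers summed to 242.2 to 379.2 CPM and 372.4 to 448.8 CPM, with COL1A2 and PDGFRA at 0 counts, PDGFRB and DCN higher (log2 fold changes 1.69 and 2.95, adjusted p 0.000721 and 0.00276), and LUM and COL1A1 not passing. The 4 endothelial markers summed to 2.76 to 3.88 CPM in shCtrl and 3.17 to 5.24 CPM in shTFAM, with KDR at 0 counts, and none was abundant enough to test. The part of these markers in the glycolytic result was not tested. In such bulk libraries a smaller number of cells of one type and less RNA per cell cannot be told apart.

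All 10 glycolytic genes had more RNA in every shTFAM library than in any shCtrl library, and 9 of the 10 rose by the test, by 1.44-fold (TPI1) to 6.00-fold (ENO2). PGAM1, the phosphoglycerate mutase, was the gene that did not pass. No gene of the 10 fell. Across all tested rows, 17.9% were called in either direction at an adjusted p under 0.05 and 11.3% were called higher in shTFAM. Separation of the kind seen in all 10 genes, with the 3 shTFAM libraries above the 3 shCtrl libraries, was found in 22.1% of all tested rows. The median log2 fold change of the 10 genes was 0.96, against -0.015 for all tested rows. Every one of the 10 was highest in shTFAM 3, and 7 had their highest shCtrl value in shCtrl 3.

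**Figure D1:**
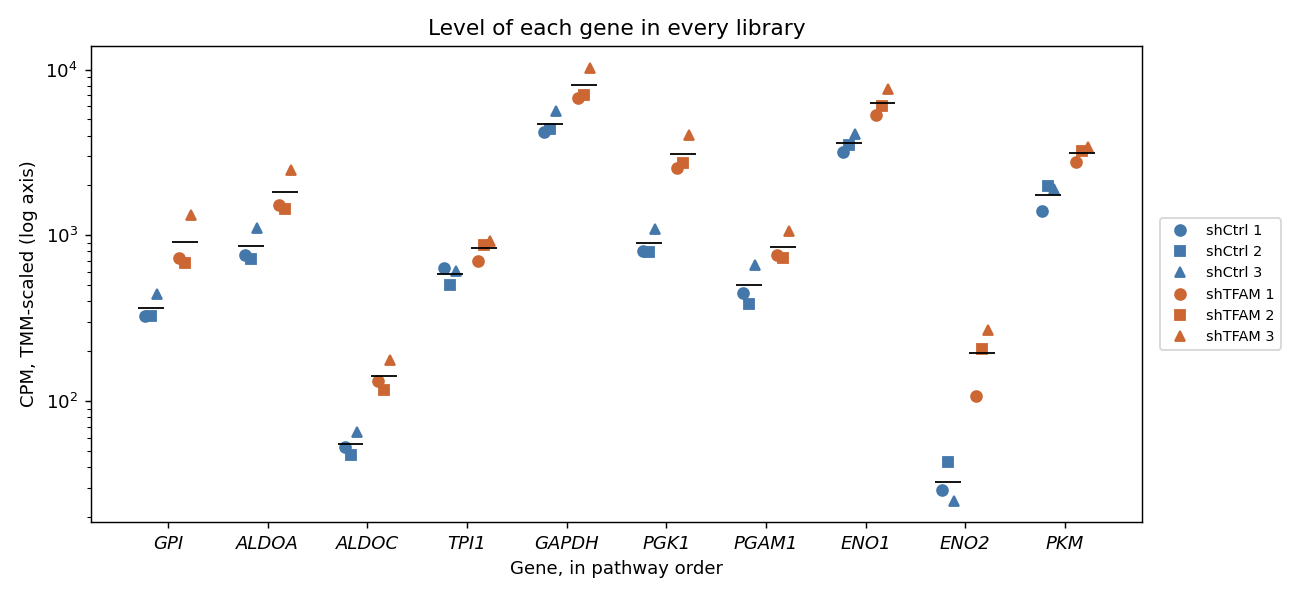
Level of each of the 10 genes in each library, in TMM-scaled CPM on a log axis, with genes in pathway order; circles, squares and triangles are replicates 1, 2 and 3, blue is shCtrl, orange is shTFAM, and black bars are group means. For every gene the 3 orange points lie above the 3 blue points, with the orange triangle (shTFAM 3) on top.

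GPI (ENSG00000105220; hg38 chromosome 19, 34359480 to 34402413, plus strand) interconverts glucose-6-phosphate and fructose-6-phosphate. Its level was 325.8, 324.3 and 441.8 CPM in shCtrl 1, 2 and 3 and 728.5, 683.0 and 1327 CPM in shTFAM 1, 2 and 3. The lowest shTFAM library stood 1.55 times above the highest shCtrl library, and shTFAM 3 stood 1.88 times above the mean of the other shTFAM libraries, the widest such gap among the 10 genes. GPI rose 2.51-fold (log2 1.33, SE 0.276, adjusted p 0.0207). Its call was lost without shCtrl 1 (adjusted p 0.0662) or without shCtrl 2 (0.0681).

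The aldolases cleave fructose-1,6-bisphosphate into the triose phosphates, and ALDOA is the broadly expressed form while ALDOC is best known from brain. ALDOA (ENSG00000149925; chromosome 16, 30064164 to 30070414, plus strand) was measured at 762.5, 717.7 and 1102 CPM in shCtrl and at 1534, 1436 and 2491 CPM in shTFAM libraries 1, 2 and 3. The groups did not overlap, and within each group replicate 3 was the highest. ALDOA rose 2.12-fold (log2 1.08, SE 0.258, adjusted p 0.0310), a call lost on leaving out shCtrl 1, shCtrl 2, shTFAM 1 or shTFAM 3 (adjusted p 0.0502 to 0.0938). ALDOC (ENSG00000109107; chromosome 17, 28573115 to 28576948, minus strand) was a much scarcer RNA, at 52.8, 47.6 and 64.8 CPM in shCtrl and 131.6, 116.1 and 177.1 CPM in shTFAM. Its lowest shTFAM library was 1.79 times its highest shCtrl library. ALDOC rose 2.57-fold (log2 1.36, SE 0.189, adjusted p 0.00588) and passed in all 19 alternative analyses.

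TPI1 (ENSG00000111669; chromosome 12, 6867119 to 6870948, plus strand) interconverts the triose phosphates and had the smallest fold change of the 10. It was measured at 633.0, 503.3 and 605.4 CPM in shCtrl and at 697.9, 874.3 and 928.6 CPM in shTFAM libraries 1, 2 and 3. The groups were separated by a narrow margin, the lowest shTFAM library being 1.10 times the highest shCtrl library. TPI1 rose 1.44-fold (log2 0.52, SE 0.143, adjusted p 0.0465), close to the threshold. Only 7 of its 19 alternatives kept the call, and leaving out shCtrl 1, shCtrl 2, shCtrl 3, shTFAM 2 or shTFAM 3 each ended it, with adjusted p up to 0.134.

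GAPDH (ENSG00000111640; chromosome 12, 6534512 to 6538371, plus strand) oxidises glyceraldehyde-3-phosphate with the reduction of NAD and is often used as a reference transcript. It was measured at 4185, 4358 and 5601 CPM in shCtrl and at 6718, 7068 and 10275 CPM in shTFAM libraries 1, 2 and 3. Every shTFAM library lay above every shCtrl library, by 1.20 times at the nearest. GAPDH rose 1.70-fold (log2 0.77, SE 0.202, adjusted p 0.0411), and the call ended whenever a library other than shCtrl 3 was left out (adjusted p 0.0554 to 0.119). With all 6 libraries it was also lost without a filter (0.0582), with quantile normalization (0.0781) and with limma on log2 FPKM (0.0528 and 0.0529 for pseudocounts of 0.1 and 1), so that 10 of 19 alternatives kept it.

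PGK1 (ENSG00000102144; chromosome X, 77910739 to 78129295, plus strand) makes the first ATP of the pathway from 1,3-bisphosphoglycerate. It was measured at 805.3, 790.0 and 1096 CPM in shCtrl and at 2555, 2729 and 4017 CPM in shTFAM libraries 1, 2 and 3. The nearest libraries of the groups differed 2.33 times, a wider gap than in any other of the 10 genes except ENO2. PGK1 rose 3.46-fold (log2 1.79, SE 0.218, adjusted p 0.00394) and passed in all 19 alternatives, with log2 fold changes between 1.56 and 1.95 when single libraries were left out.

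PGAM1 (ENSG00000171314; chromosome 10, 97426191 to 97433444, plus strand) moves the phosphate from carbon 3 to carbon 2 of phosphoglycerate. It was measured at 448.3, 387.4 and 659.6 CPM in shCtrl and at 760.6, 725.7 and 1067 CPM in shTFAM libraries 1, 2 and 3. The groups did not overlap, but shCtrl 3 came within 1.10 times of the lowest shTFAM library and stood 1.58 times above the mean of the other shCtrl libraries. The 1.71-fold difference (log2 0.77, SE 0.234) had an adjusted p of 0.0613. Without shCtrl 3 the adjusted p was 0.0251. It was 0.00974 with DESeq2 and 0.0488 when only rows of at least 5 FPKM (fragments scaled to gene length and library size) were tested.

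The enolases form phosphoenolpyruvate, ENO1 as the widely expressed form and ENO2 as the form known from neurons and neuroendocrine cells. ENO1 (ENSG00000074800; chromosome 1, 8861000 to 8878690, minus strand) was measured at 3191, 3505 and 4081 CPM in shCtrl and at 5300, 6015 and 7626 CPM in shTFAM libraries 1, 2 and 3. It rose 1.76-fold (log2 0.81, SE 0.168, adjusted p 0.0204), a call lost without shCtrl 1 (0.0649) or shCtrl 2 (0.0675). ENO2 (ENSG00000111674; chromosome 12, 6913745 to 6923696, plus strand) was the scarcest RNA of the 10, at 29.3, 43.0 and 25.1 CPM in shCtrl and 106.8, 207.5 and 269.7 CPM in shTFAM. Its lowest shTFAM library was 2.48 times its highest shCtrl library, and the shTFAM libraries differed among themselves by more than those of the other genes. ENO2 rose 6.00-fold (log2 2.58, SE 0.365, adjusted p 0.00617) and passed in all 19 alternatives. Whereas 7 of the 10 genes had their highest shCtrl value in shCtrl 3, ENO2 had its lowest value there, at 0.695 times the mean of the other shCtrl libraries.

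PKM (ENSG00000067225; chromosome 15, 72199029 to 72231680, minus strand) makes pyruvate and ATP, and its transcript is spliced to the M1 or the M2 enzyme, which a single gene row does not separate. It was measured at 1394, 1988 and 1902 CPM in shCtrl and at 2758, 3222 and 3430 CPM in shTFAM libraries 1, 2 and 3. The lowest shTFAM library was 1.39 times the highest shCtrl library. PKM rose 1.78-fold (log2 0.83, SE 0.163, adjusted p 0.0171), with the call lost without shTFAM 2 (0.0519) or shTFAM 3 (0.0538). The 4 splicing factors listed as acting on PKM were not called, among them HNRNPA1 (log2 fold change -0.26, adjusted p 0.135) and HNRNPA2B1 (-0.013, adjusted p 0.957). The others, named after their values were seen, were SRSF3 (-0.46, adjusted p 0.0895), the largest change of the list, and PTBP1 (0.29, adjusted p 0.332).

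**Figure D2:**
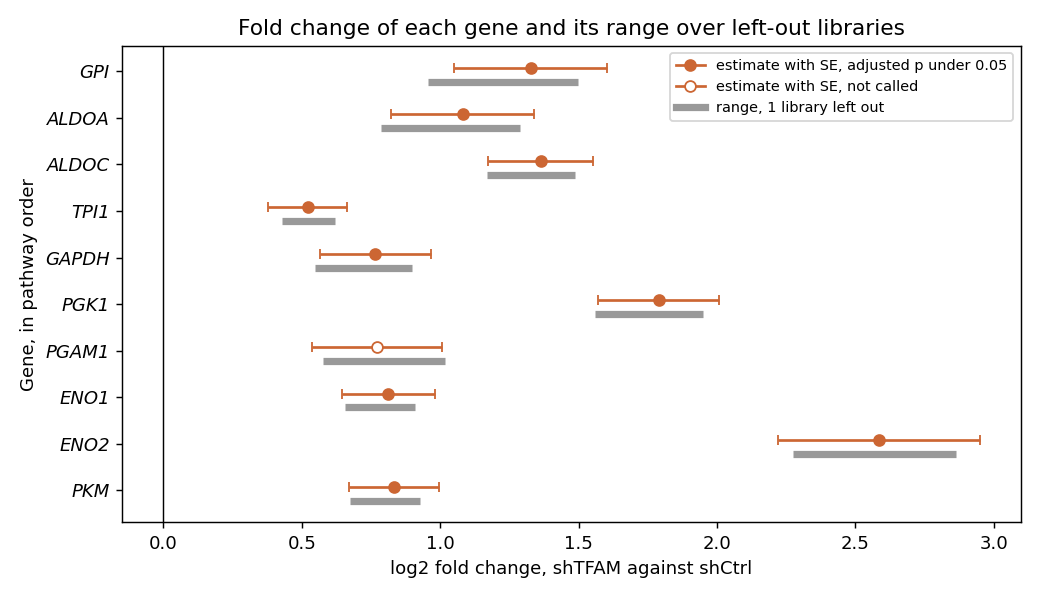
Log2 fold change of each gene, shTFAM over shCtrl, with bars of 1 SE derived from edgeR's F statistic. Filled points passed an adjusted p under 0.05, and grey bars span the estimates with 1 library left out. ENO2 (2.58) and PGK1 (1.79) lie highest, TPI1 (0.52) lowest, and PGAM1 (0.77) is the gene that did not pass.

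Replicate 3 of both groups was high for most of the 10 genes, so the comparison was repeated without shCtrl 3 and shTFAM 3 together, an alternative chosen after the values were seen. In those 4 libraries 8 of the 10 genes passed, and 2003 of all 14706 rows tested. TPI1 (adjusted p 0.132) and PKM (0.0611) were lost, and PGAM1 passed (0.0138).

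Levels of different genes were compared per length, as FPKM. In shCtrl, GAPDH (1712 ± 289 FPKM, SD, n = 3) and ENO1 (599.1 ± 77.1) stood above the rest. ALDOA (195.6 ± 48.9), TPI1 (187.1 ± 23.6), PKM (178.6 ± 31.8), PGAM1 (170.9 ± 50.1) and PGK1 (143.6 ± 28.5) followed, neighbours in that order differing by less than their SD. GPI (29.7 ± 5.66), ALDOC (18.3 ± 3.06) and ENO2 (6.56 ± 1.84) were the scarcest, and differed from each other by more than their SD. In shTFAM, PGK1 (466.3 ± 105) was the next after GAPDH (2738 ± 582) and ENO1 (991.1 ± 156), followed by ALDOA (388.4 ± 112), PKM (300.2 ± 25.4), PGAM1 (274.2 ± 52.1) and TPI1 (253.1 ± 30.7). From PGK1 to TPI1 each neighbour again lay within the SD of at least one of the pair. GPI (69.7 ± 25.2), ALDOC (44.4 ± 8.70) and ENO2 (37.1 ± 14.8) stayed the last 3, with ENO2 and ALDOC now within their SD of each other. Among all rows outside mitochondrial DNA, GAPDH ranked 2 and ENO1 ranked 6 by mean FPKM over the 6 libraries.

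The 10 genes together took 1.22, 1.28 and 1.61% of all counts in shCtrl 1, 2 and 3 and 2.13, 2.25 and 3.01% in shTFAM 1, 2 and 3. As a share of the 10 genes' counts, GAPDH and ENO1 together made up 62.4, 62.1 and 62.2% in shCtrl and 56.5, 56.7 and 56.6% in shTFAM. Their joint share was thus nearly the same within each group, including in the replicate 3 libraries where absolute levels were high, and lower in shTFAM. Summed over all isoform genes of a step, PGAM4 and ENO3 included, FPKM in shTFAM were 3.25 times those in shCtrl at phosphoglycerate kinase, 2.35 times at GPI and 2.02 times at aldolase. The ratio was 1.35 at triose-phosphate isomerase and 1.60 to 1.68 at GAPDH, the mutase, enolase and pyruvate kinase. These ratios use the deposited FPKM without TMM scaling, and so differ from the TMM-scaled fold changes given above for the same genes.

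Ratios of 2 genes in 1 library do not depend on how libraries are scaled, and setting each gene against GAPDH was a comparison chosen after the values were seen. PGK1 stood at 8.48, 7.99 and 8.63% of GAPDH FPKM in shCtrl and at 16.8, 17.0 and 17.2% in shTFAM libraries 1, 2 and 3. Within each group these values were close together although the level of PGK1 itself was higher in replicate 3 of both groups. ENO2 stood at 0.390, 0.551 and 0.250% in shCtrl and at 0.889, 1.64 and 1.47% in shTFAM. ALDOC went from 1.00 to 1.16% to 1.51 to 1.80%, GPI from 1.67 to 1.77% to 2.17 to 2.90%, and ALDOA from 10.3 to 12.3% to 12.7 to 15.2%. For these 5 genes the groups did not overlap, and the two-sided exact permutation p was 0.1, the smallest that 3 against 3 libraries allow (0.18 adjusted over the 9 ratios). How many of all tested rows separate in this way relative to GAPDH was not counted, so the 5 genes cannot be set against a background share. TPI1, PGAM1, ENO1 and PKM overlapped between groups relative to GAPDH, with mean shTFAM to shCtrl ratios of 0.851, 1.03, 1.04 and 1.07 and exact permutation p of 0.4, 0.9, 0.6 and 0.8 (adjusted 0.6, 0.9, 0.771 and 0.9). Overlap at this number of libraries does not show that these 4 genes and GAPDH changed equally.

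**Figure D3:**
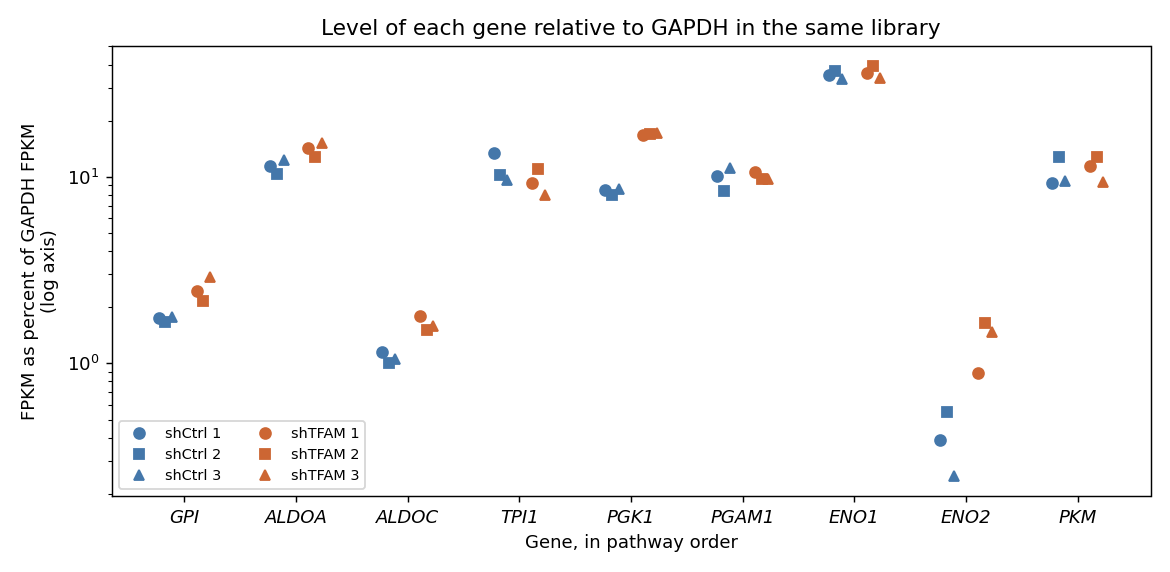
Each gene's FPKM as a percent of GAPDH FPKM in the same library, on a log axis, with shCtrl in blue, shTFAM in orange and shapes for replicates. PGK1 sits at 7.99 to 8.63% in shCtrl and 16.8 to 17.2% in shTFAM, whereas the points of TPI1, PGAM1, ENO1 and PKM overlap between groups.

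Within a step, the balance of scarce and abundant forms was compared for enolase and aldolase. The log2 ratio of ENO2 to ENO1 was -6.54 ± 0.502 in shCtrl and -4.82 ± 0.459 in shTFAM (SD, n = 3; difference 1.72), with no overlap and a two-sided exact permutation p of 0.1, the smallest possible. ENO2 remained a minor part of enolase RNA, at 0.730 to 1.43% of the summed FPKM of all enolase genes, ENO3 included, in shCtrl and 2.36 to 4.10% in shTFAM. For the aldolases the log2 ratio of ALDOC to ALDOA was -3.40 ± 0.122 and -3.11 ± 0.139 (difference 0.29, exact permutation p 0.1; both p adjusted over the 2 ratios were 0.1). ALDOC was 7.93 to 9.21% of the summed ALDOA and ALDOC FPKM in shCtrl and 9.44 to 11.2% in shTFAM. That separation was small. The groups overlapped when a row overlapping ALDOA was added to it (difference 0.31, exact permutation p 0.2) and when 1 was added to each FPKM (difference 0.25, exact permutation p 0.2). The longest annotated transcripts of ALDOA and ALDOC, and of ENO1 and ENO2, share no identical stretch of 150 bases, the read length. Stretches that differ by a few bases were not searched.

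Other isoforms of these steps were scarce or had no counts. GAPDHS, PGK2 and PKLR, the liver and red cell pyruvate kinase, had 0 counts in all 6 libraries. PGAM2, the muscle mutase, had 4 counts in shCtrl 3 alone, and ENO4 had 14 and 6 counts in shTFAM 1 and 3 alone. ENO3, the muscle enolase, averaged 72.5 ± 20.9 CPM in shCtrl and 57.4 ± 4.17 CPM in shTFAM and was not called (log2 fold change -0.34, adjusted p 0.304). PGAM4, a gene derived from PGAM1, averaged 25.4 ± 5.17 and 41.3 ± 13.6 CPM and was not called either (0.70, adjusted p 0.0986).

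Some counts cannot be assigned to a single gene with certainty. ALDOA shares 1657 of its 3916 annotated exon bases (42.3%) with a protein-coding row on the same strand, AC093512 (ENSG00000285043). That row held 14684, 18653 and 3603 counts in shCtrl 1, 2 and 3 and 19720, 28091 and 28563 in shTFAM 1, 2 and 3. It was thus lowest in shCtrl 3, where ALDOA itself was high, and made up 30.2, 33.5 and 6.19% of the summed counts of both rows in shCtrl and 21.7, 30.3 and 16.5% in shTFAM. The sum of the rows was 1092, 1079 and 1174 CPM in shCtrl and 1958, 2059 and 2983 CPM in shTFAM, with less spread among shCtrl libraries than ALDOA alone. On the sum, the log2 fold change was 1.06 and the adjusted p 0.00936, an alternative added after the values were seen. Processed copies were numerous for GAPDH, with 62 rows, but they held 0.490 to 0.630% of its counts. They mattered more for TPI1 (4 rows, 4.25 to 6.27% of its counts) and PGAM1 (14 rows including PGAM4, 4.31 to 6.35%). PGAM4 matched PGAM1 at 98.3% over 765 aligned bases, and 7.14% of 150-base windows of PGAM1 occur exactly in PGAM4, so part of their reads cannot be told apart. With copies added to each gene, the same 9 genes passed, and 2626 of all 14699 rows tested.

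**Figure D4:**
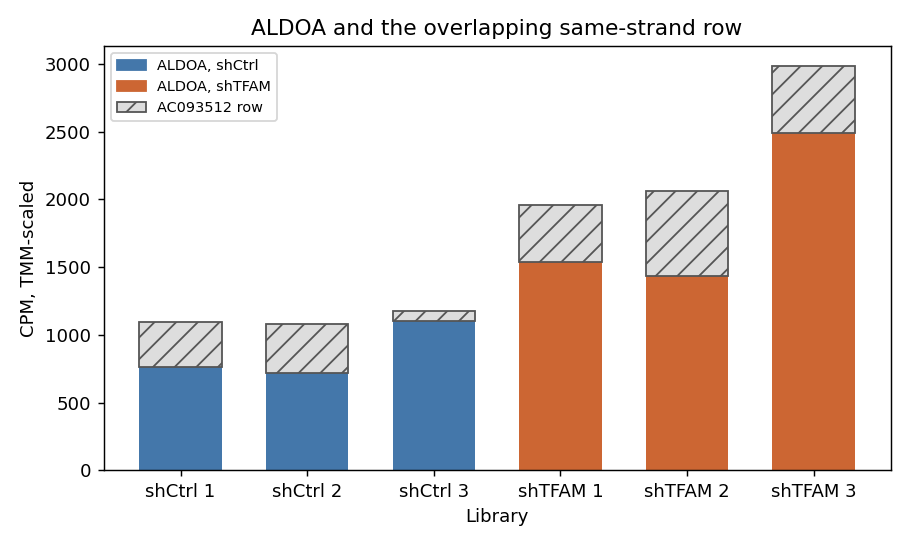
CPM of ALDOA and of the overlapping row AC093512 in each library, stacked from 0. The overlapping row is smallest in shCtrl 3 (6.19% of the sum), and the summed bars of shCtrl 1, 2 and 3 (1092, 1079 and 1174 CPM) are closer to each other than the ALDOA parts are.

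The promoters of PGK1, ENO2 and ALDOC are shown because these 3 genes passed in every alternative analysis. Each line gives the 250 bases before a RefSeq start in GRCh38.p14, written 5′ to 3′ on the gene's strand. Capitals mark ACGTG, a form of the core of the hypoxia response element, or its reverse complement CACGT.
PGK1, chrX:78103998-78104247, plus strand: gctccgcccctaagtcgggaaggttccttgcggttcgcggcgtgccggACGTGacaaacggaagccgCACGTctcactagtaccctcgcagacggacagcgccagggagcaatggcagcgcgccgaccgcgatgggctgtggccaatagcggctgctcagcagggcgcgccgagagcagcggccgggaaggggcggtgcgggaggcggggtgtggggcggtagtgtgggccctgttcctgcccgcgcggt
ENO2, chr12:6914330-6914579, plus strand: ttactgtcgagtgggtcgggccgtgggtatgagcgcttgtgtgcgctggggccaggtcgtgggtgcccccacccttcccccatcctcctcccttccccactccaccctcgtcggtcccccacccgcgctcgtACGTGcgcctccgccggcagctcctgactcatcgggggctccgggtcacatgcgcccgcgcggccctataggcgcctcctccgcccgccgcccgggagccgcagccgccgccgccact
ALDOC, chr17:28576896-28577145, minus strand: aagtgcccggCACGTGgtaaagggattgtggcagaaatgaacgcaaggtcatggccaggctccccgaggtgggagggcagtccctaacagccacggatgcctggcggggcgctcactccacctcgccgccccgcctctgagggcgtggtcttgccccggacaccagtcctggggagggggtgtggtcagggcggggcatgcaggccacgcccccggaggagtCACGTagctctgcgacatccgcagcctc
In PGK1 the matches begin 202 and 183 bases before the start, on opposite strands, and ENO2 has 1 match, 118 bases before it. ALDOC has matches at 240, 239 and 28 bases, the first pair being the palindrome CACGTG read on both strands. Over the 13 RefSeq windows of the 10 genes, 9 windows in 7 genes held ACGTG on either strand (GPI, ALDOA, ALDOC, TPI1, GAPDH, PGK1 and ENO2), against 18.5% of the 35116 windows of the same length of all genes. The windows of PGAM1, ENO1 and PKM held no ACGTG. The variant GCGTG was not searched, and the ENO1 window does hold it, so a window without ACGTG can still hold another form of the core. GGGCGG, the GC box, occurred in 10 of the 13 windows and in 42.6% of all windows, and TATAAA in 0 of 13 and 10.7%. The windows of PGK1, ENO2 and ALDOC had 71.2, 74.0 and 68.4% G and C, against a median of 58.0% over all windows. The 13 windows spanned 53.2 to 74.0%. Whether base composition accounts for the matches was not tested. Some genes had more than 1 window, 2 of the ALDOA windows overlap each other, and the shares of all windows do not count genes. A match describes letters in a window, and no binding was measured here. The PGK1 row starts 193509 bases upstream of this RefSeq start, because it includes long upstream transcripts, and the ENO2 row starts 835 bases upstream of its own.

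The genes around the trunk were read from 10 lists by pathway position, which held 80 symbols, of which 79 were found and 60 tested. Of these 60, 13 were called higher and 4 lower, against 11.3% and 6.59% of all tested rows, with a median log2 fold change of 0.038. Upstream of the trunk, of 5 tested genes of glucose entry and first phosphorylation, 4 rose, with a median of 1.76. At the step between GPI and aldolase, of 7 tested genes of phosphofructokinase and its regulators 4 rose and 1 fell, with a median of 0.83. Hexokinase HK2 averaged 117.4 CPM in shCtrl and 809.0 CPM in shTFAM (log2 fold change 2.79, adjusted p 0.00354). The glucose transporters SLC2A1 and SLC2A3 rose by 1.76 and 2.17 log2 units (adjusted p 0.00632 and 0.00643). PFKP, the platelet-type phosphofructokinase, rose by 0.84 (adjusted p 0.00594), and PFKFB2 and PFKFB4, which set the level of its activator fructose-2,6-bisphosphate, rose by 0.83 and 2.76 (0.00339 and 0.00617). TIGAR, a phosphatase that lowers that activator, fell by 0.90 (adjusted p 0.0468), and was named after its value was seen.

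At the lactate and pyruvate end, 3 of 9 tested genes rose, 2 fell and 4 were not called. PDK1, the kinase that inhibits pyruvate dehydrogenase, rose by 1.66 log2 units (adjusted p 0.00304). The lactate exporter SLC16A3 rose by 1.11 (0.00317) and lactate dehydrogenase LDHA by 1.25 (0.00811). The genes that fell, named after their values were seen, were MPC1, a subunit of the mitochondrial pyruvate carrier (fell by 0.87, adjusted p 0.0187), and LDHB (fell by 0.45, 0.0268). The steps that are particular to gluconeogenesis gave no call among 4 tested genes. PC, pyruvate carboxylase, had a log2 fold change of 0.42 (adjusted p 0.115) and PCK2, the mitochondrial PEP carboxykinase, of -0.66 (0.379), while FBP1, FBP2 and G6PC had 0 counts in all libraries.

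The branches that leave the trunk were mostly not called. None of the 5 tested serine branch genes, which start from 3-phosphoglycerate, passed, with a median of -0.37; PSAT1 had a log2 fold change of -0.96 (adjusted p 0.0967) and SHMT2 of -0.37 (0.174). PSPH, the phosphoserine phosphatase, named after its values were seen, had the list's smallest adjusted p (-1.21, adjusted p 0.0535), with every shTFAM library below every shCtrl library. Of 8 pentose phosphate genes, RPE, the ribulose phosphate epimerase, was the single call (fell by 0.68, adjusted p 0.0213), and the median was -0.12. The 8 tested genes of the glycerol phosphate and triose branches gave no call (median -0.057), with GLO1 at -0.24 and GPD2 at 0.078. Of 8 genes of the hexosamine and hexose phosphate branches 2 rose, UGP2, which makes UDP-glucose (0.49, adjusted p 0.0211), and PGM1, a phosphoglucomutase (0.50, 0.0278).

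**Figure D5:**
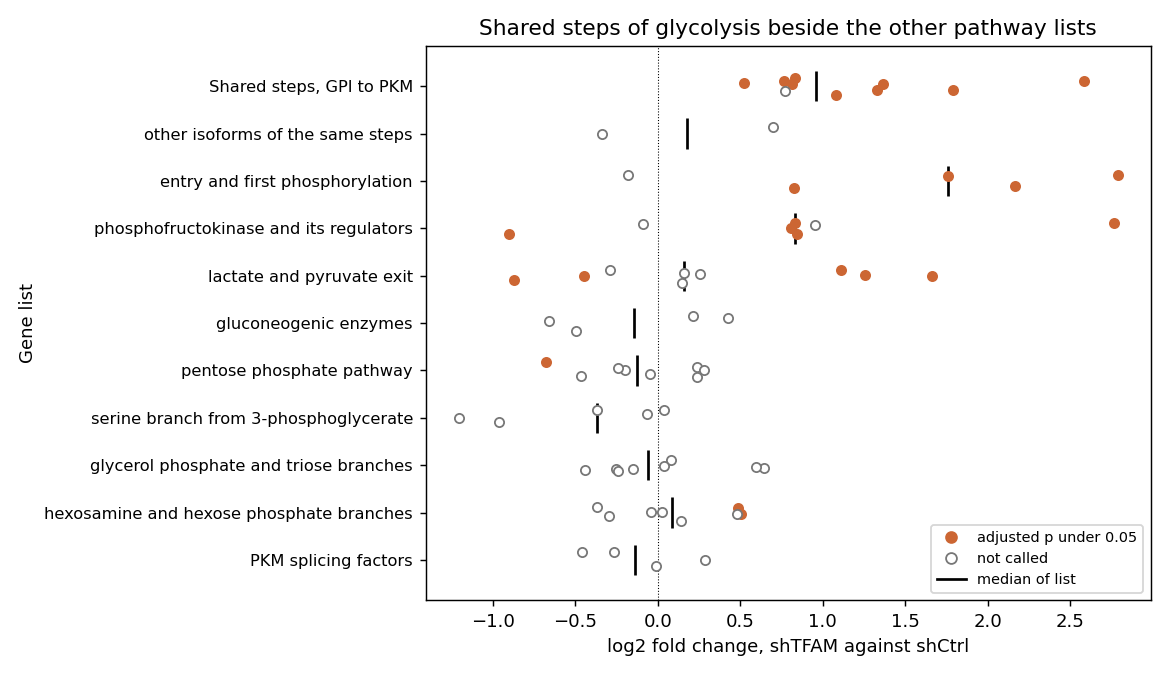
Log2 fold change, shTFAM over shCtrl, of each tested gene in the trunk (top row) and in the 10 neighbouring lists; filled points passed an adjusted p under 0.05 and black bars are list medians. The trunk genes lie between 0.52 and 2.58, and the serine, pentose phosphate and glycerol phosphate lists have medians of -0.37, -0.12 and -0.057.

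Rows with a profile over the 6 libraries near the mean profile of the 10 genes were sought by Euclidean distance of centred log2 CPM. The search covered 6581 rows of at least 5 FPKM outside the 10 genes, their copies and overlapping rows. Genes of the neighbouring lists were eligible. The nearest were GYS1 (distance 0.207, Pearson r 0.997), DKK1 (0.220, 0.992), S100A10 (0.231, 0.996), LPCAT1 (0.232, 0.996), TAF9B (0.234, 0.988) and SFXN3 (0.240, 0.992). These r values describe 6 libraries that share the group difference, and they carry no test. GYS1, the muscle-type glycogen synthase, averaged 74.8 ± 9.52 CPM in shCtrl and 154.4 ± 30.7 CPM in shTFAM (SD, n = 3). Among the 10 genes themselves, ALDOC lay nearest to their mean profile (distance 0.354) and ENO2 farthest (1.92).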

How the data were processed

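RNA was poly(A)-selected and made into strand-keeping dUTP libraries, per the labels' protocols. Per the submitters' processing notes, the tools were StringTie 1.3.4d, HISAT2 2.0.4, cutadapt 1.9 and Bowtie 0.12.2, and hg38 and mm8 were the builds, with no roles. The counting tool, the annotation and the strand setting are not given in the sources used here. Per the file headers, whole-number counts and FPKM of each library were deposited as 1 table of 60612 gene rows. The log2 ratio of the deposited count to the deposited FPKM was constant between libraries to an SD of 0.00278.

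Groups came from the treatment label. Replicates were numbered in accession order and not paired. Counts were tested with edgeR 4.0.16 in R 4.3.3 (quasi-likelihood, TMM factors 0.951 to 1.04, two-sided, Benjamini-Hochberg over 14708 rows of mean FPKM of at least 0.5, which held 99.4 to 99.5% of counts). The common biological coefficient of variation was 0.251. Each SE was derived as the absolute log2 fold change divided by the square root of the quasi-likelihood F statistic. The script was tested on simulated data. No replicate pair agreed within sampling noise (lowest chi-square per degree of freedom 42.6). Alternatives used limma 3.58.1, DESeq2 1.42.0, other filters and scalings, and each library left out. The genes and lists were chosen with earlier results of these data known. Named were all 10 genes, isoforms with a count, up to 3 called genes of smallest p per list or the 2 most abundant where none was called, and the 6 nearest profiles. Exon overlaps came from GENCODE release 29.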

Additional observations from a re-analysis of the deposited data

How the results depend on the processing

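All 10 genes had a positive log2 fold change in each of the 19 alternatives. At an adjusted p under 0.01, 698 rows, 3 of the 10 genes (ALDOC, PGK1 and ENO2) and 9 of the 17 called neighbouring pathway genes passed. Leaving out single libraries gave 1148 to 2068 called rows, 4 to 9 of the 10 genes and 11 to 19 neighbouring genes, against 2630, 9 and 17 with all 6 libraries. The count of the 10 genes was 4 without shCtrl 1 or shCtrl 2, 5 without shTFAM 3, 6 without shTFAM 2, 7 without shTFAM 1 and 9 without shCtrl 3; fewer samples were then tested. The share of calls that were higher was 63.2% with TMM, 51.7% with library totals, 40.4% with totals outside mitochondrial DNA, 53.6% with quantile normalization and 48.9% with limma on log2(FPKM + 1), and totals outside mitochondrial DNA moved the median of all rows from -0.015 to -0.15 log2 units. Under those 4 settings 7 or 8 of the 10 genes passed, with TPI1 and PGAM1 not passing in any of them. In the order given after TMM, these settings called 2619, 2969, 2735 and 2615 of the 14708 rows. DESeq2 and the filter at 5 FPKM called all 10. They also called more of the table, 3850 of 14708 and 1766 of 6595 rows, against 2630 of 14708 in the main test. Of the ratios to GAPDH, the log2 difference for PGAM1 ranged from -0.077 to 0.13 and that for PKM from -0.0081 to 0.24 when single libraries were left out, so their direction was not fixed. The cause was not tested. Counts of these genes were far from the floor, the scarcest having at least 1245 counts in every library. The library where all 10 genes were highest, shTFAM 3, was also the deepest (61058282 counts), and the part of depth was not tested.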
